A study of Mus musculus with 8 samples.

Results

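The metallothioneins Mt1 and Mt2 and 5 genes that sense or carry zinc across membranes were followed in the liver of Pemt-/- and Pemt+/+ mice while they were fed high fat-high sucrose (HFHS) chow for up to 4 weeks. The 7 genes were taken as a group by name, namely Mt1, Mt2, the zinc sensor Mtf1, the importers Slc39a14 and Slc39a10 and the exporters Slc30a1 and Slc30a10. Every probe set that the array annotation paired with 1 of these genes alone was included, which gave 18 of the 45037 probe sets on the array and 7 of 18193 genes. Pemt-/- mice lack phosphatidylethanolamine N-methyltransferase, the enzyme that makes phosphatidylcholine from phosphatidylethanolamine, in the whole body. Pemt+/+ mice are the wild type, and all mice received the HFHS diet. The study's methods describe male mice, and the age of the mice at the start of the diet is not given there. Affymetrix arrays were run with 1 array per genotype at 1, 2, 3 and 4 weeks, so there were 8 arrays and 4 per genotype, and there was no array before the diet or on another diet. For these samples the study's methods give n = 4 mice per genotype, but not how the mice were divided over weeks and arrays. The sources do not state whether an array holds RNA of 1 mouse or of several. The p-values of the genotype difference therefore rest on how that difference varied between weeks. Those of the change per week rest on the scatter of the arrays about the fitted lines. No array was repeated within a genotype and week, and precision is limited by the small number of arrays.

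Metallothioneins are small proteins rich in cysteine that bind zinc and copper and release zinc again when it is needed. When free zinc in a cell rises, the transcription factor MTF-1, encoded by Mtf1, binds short metal response elements in front of Mt1, Mt2 and Slc30a1 and increases their transcription. In mouse liver, metallothionein genes also respond to inflammatory cytokines, glucocorticoids and oxidative stress, and Slc39a14 is known as an importer that IL-6 induces in hepatocytes.

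The promoter sequences in front of the genes that differed between the genotypes are shown first, because the metal response elements of MTF-1 targets lie in promoters. A window of 250 bases before and 50 bases after the start was found in the mouse RefSeq table (GRCm38.p6) for 6 of the 7 genes, and not for Slc39a14. The motif searched was TGCACNC or TGCGCNC on both strands, with overlapping matches counted. It was found 4 times in the window of Mt2, 3 times in that of Mt1, 2 times in that of Slc30a1 and 3 times in that of Slc30a10, where a pair of matches on opposite strands overlap. It was not found in the windows of Mtf1 and Slc39a10. Of all 32851 windows of this length in the table, 25.7% held at least 1 match, 7.11% at least 2, 1.97% at least 3 and 0.517% at least 4. A match describes the letters only and says nothing about binding. In the sequences below, 5′ to 3′, capitals mark the matches. Before and after refer to the start that the table gives, which is not the outer end of the gene for Mt1 and Slc30a1. The positions and counts of these genes hold for that start only.
Mt2, 250 bases before the start, chr8:94172368-94172617, plus strand: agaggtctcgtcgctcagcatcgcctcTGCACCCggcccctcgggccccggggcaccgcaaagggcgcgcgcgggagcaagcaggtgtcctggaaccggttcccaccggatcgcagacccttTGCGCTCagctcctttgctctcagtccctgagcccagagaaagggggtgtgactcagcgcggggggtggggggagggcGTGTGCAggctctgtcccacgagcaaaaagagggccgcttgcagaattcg
Slc30a10, 250 bases before the start, chr1:185454598-185454847, plus strand: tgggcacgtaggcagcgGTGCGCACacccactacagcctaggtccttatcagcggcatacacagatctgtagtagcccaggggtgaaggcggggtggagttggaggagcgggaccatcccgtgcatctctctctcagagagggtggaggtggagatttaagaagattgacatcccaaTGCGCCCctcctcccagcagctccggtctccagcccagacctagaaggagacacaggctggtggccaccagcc
Mt2, site after the start, chr8:94172611-94172639, plus strand: gaattcgggtcGTGCGCAggcccaggggc
Mt1, site before the start, chr8:94179055-94179083, plus strand: cggtcccgctgTGCACACtggcgctccag
Mt1, first site after the start, chr8:94179080-94179108, plus strand: ccagggagctcTGCACTCcgcccgaaaag
Mt1, second site after the start, chr8:94179098-94179126, plus strand: cgcccgaaaagTGCGCTCggctctgccaa
Slc30a1, site before the start, chr1:191906727-191906755, plus strand: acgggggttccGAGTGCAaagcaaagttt
Slc30a1, site after the start, chr1:191906800-191906828, plus strand: gcctccgggccGAGCGCAgtcgccgcgga

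Mt1 and Mt2 lie next to each other on chromosome 8, in the gene order Bbs2, Mt4, Mt3, Mt2, Mt1 and Nup93. The Mt1 match before the start lies 23 bases upstream of it, and the Mt2 matches before the start lie 223, 128 and 50 bases upstream, counted from the start to the first base of the match. These starts differ in kind, since the start that the table gives is the outer end of the gene for Mt2 and Slc30a10 but not for Mt1 and Slc30a1, so the distances of Mt1 and Mt2 are not set against each other.

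Both metallothionein genes were higher in Pemt-/- liver in every week. Slc30a10 and Slc30a1, which export metal ions from the cell, were lower in Pemt-/- liver, while no probe set of Mtf1 or of the importers Slc39a14 and Slc39a10 passed the test. Of the 18 probe sets, 15 were bright enough to be tested, and 2 were higher, 3 were lower and 10 did not pass (limma, adjusted p under 0.05). Among all 27022 probe sets tested, 10.3% were higher and 5.86% were lower in Pemt-/-. With each array centred on the median of the tested probe sets, 37.6% of all calls were higher in Pemt-/-, against 63.8% as deposited, and among the 15 probe sets 2 were higher and 4 lower. Intensities of the genotypes did not overlap for 5 of the 15 probe sets, the same 5 that passed the test, against 21.8% of all probe sets tested. For the targeted gene, the Pemt probe set measured 201 to 255 on the Pemt-/- arrays and 4989 to 6045 on the Pemt+/+ arrays (adjusted p = 5.00e-07).

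Mt1 encodes metallothionein 1, which together with metallothionein 2 forms the inducible pair in liver. Its bright probe set belongs to a class that can detect several similar transcripts. It measured 1365, 2422, 6282 and 7867 at weeks 1, 2, 3 and 4 in Pemt-/- and 671, 590, 630 and 901 in Pemt+/+. Every Pemt-/- value lay above every Pemt+/+ value, and the ratio of Pemt-/- to Pemt+/+ was 2.03, 4.11, 9.98 and 8.73 at weeks 1, 2, 3 and 4. The genotype distance was thus smallest at week 1 and was wider in the later pair of weeks. The mean was 4484 ± 3091 in Pemt-/- and 698 ± 139 in Pemt+/+ (SD, n = 4 each), and these SDs hold the change between weeks too. In the fit with the week as a block, Mt1 was 5.10-fold higher in Pemt-/- than in Pemt+/+ (limma, log2 difference 2.35 ± 0.33 SE, adjusted p = 0.00267). The other Mt1 probe set was dim and was not tested, with 35.0, 35.9, 4.47 and 62.5 in Pemt-/- and 81.8, 23.9, 13.8 and 4.28 in Pemt+/+. It showed no order between the genotypes. Averaged with it, the Mt1 log2 difference was 1.28 (adjusted p = 0.0451).

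Mt2, which encodes metallothionein 2, had the larger genotype difference on the log2 scale. Its only probe set measured 1010, 1082, 3761 and 3486 at weeks 1, 2, 3 and 4 in Pemt-/- and 178, 211, 211 and 265 in Pemt+/+. The lowest Pemt-/- array lay well above the highest Pemt+/+ array. The ratio of Pemt-/- to Pemt+/+ was 5.66, 5.13, 17.9 and 13.2 at weeks 1, 2, 3 and 4, so Mt2 already differed more than 5-fold at the first week. The mean was 2335 ± 1493 in Pemt-/- and 216 ± 35.8 in Pemt+/+ (SD, n = 4 each). In the same fit, Mt2 was 8.54-fold higher in Pemt-/- than in Pemt+/+ (limma, log2 difference 3.09 ± 0.28 SE, adjusted p = 0.000693). Counted from the highest genotype difference among the 27022 probe sets tested, Mt2 was at place 25 and Mt1 at place 116. The coefficient of variation over the 4 arrays was 63.9% in Pemt-/- and 16.6% in Pemt+/+ for Mt2, and 68.9% in Pemt-/- and 19.9% in Pemt+/+ for Mt1.

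**Figure D1:**
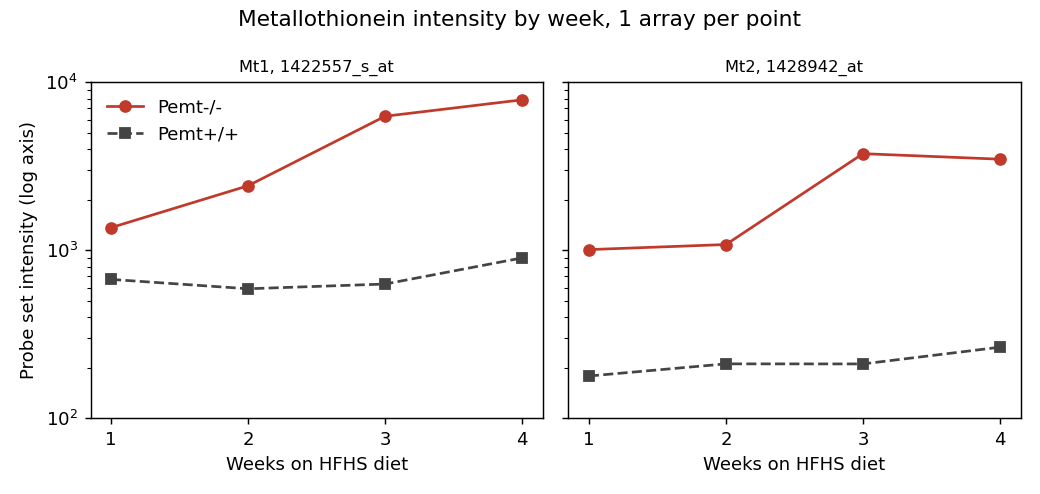
Course of Mt1 and Mt2 over the weeks of HFHS chow (x axis, weeks; y axis, probe set intensity, log scale), with red circles for Pemt-/-, grey squares for Pemt+/+ and 1 array per point with no error of its own. The Pemt-/- points reach 7867 for Mt1 at week 4 and 3761 for Mt2 at week 3, while the Pemt+/+ points stay at or below 901 and 265.

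The other metallothionein genes, Mt3, known from brain, and Mt4, known from stratified epithelia, had a mean below the filter and were not tested. Mt3 measured 7.65 to 90.1 in Pemt-/- and 8.04 to 44.2 in Pemt+/+, and Mt4 averaged 24.2 ± 14.5 in Pemt-/- and 34.9 ± 19.0 in Pemt+/+ (SD, n = 4 each).

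Mtf1 encodes the metal-responsive transcription factor that acts on Mt1 and Mt2. Its brightest probe set measured 449, 436, 500 and 489 in Pemt-/- and 366, 469, 473 and 445 in Pemt+/+ at weeks 1, 2, 3 and 4. The ranges overlapped, with means of 468 ± 30.8 in Pemt-/- and 438 ± 49.9 in Pemt+/+ (SD, n = 4 each). The log2 difference was 0.10, with a 95% interval from -0.19 to 0.38 (adjusted p = 0.646). The other tested probe sets had log2 differences of -0.07, with an interval from -0.42 to 0.27 (adjusted p = 0.786), and of -0.13, with an interval from -0.57 to 0.31 (adjusted p = 0.696). A 5-fold difference such as that of Mt1 lay outside these intervals, but smaller differences of either sign lay inside them. A further pair of Mtf1 probe sets was dim and was not tested, with 1.77 to 63.2 in Pemt-/- and 5.24 to 53.7 in Pemt+/+.

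Slc39a14, or ZIP14, brings zinc, iron and manganese into hepatocytes. Its brightest probe set measured 2114, 1649, 1663 and 1757 in Pemt-/- and 2028, 2054, 2101 and 2256 in Pemt+/+ at weeks 1, 2, 3 and 4. The Pemt-/- array of week 1 lay inside the Pemt+/+ range, and the other Pemt-/- arrays lay below it. The log2 difference was -0.24 ± 0.11 SE, with a 95% interval from -0.48 to 0.01 (adjusted p = 0.176). A call was seen in 1 of 14 alternatives, a centring added after seeing the data. There was none after quantile normalization or median centring (limma, adjusted p = 0.126 and 0.205). With each array centred on the median of the tested probe sets, the log2 difference was -0.39 (adjusted p = 0.0397), and the same centring moved the median difference of all tested probe sets to -0.14, against 0.02 as deposited. The other Slc39a14 probe sets, all dimmer, had log2 differences of -0.02, 0.06 and -0.03 (adjusted p = 0.948, 0.872 and 0.938), and their ranges overlapped. Their 95% intervals together ran from -0.50 to 0.54.

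Slc39a10, or ZIP10, is a zinc importer of the plasma membrane, and MTF-1 is known to repress it in mouse cells. Its brighter probe set measured 600, 495, 612 and 775 in Pemt-/- and 445, 551, 461 and 532 in Pemt+/+ at weeks 1, 2, 3 and 4. It was the higher in Pemt-/- at weeks 1, 3 and 4 and the lower at week 2. The log2 difference was 0.30 ± 0.14 SE, with a 95% interval from -0.03 to 0.63 (adjusted p = 0.198). The dim probe set of Slc39a10 had a log2 difference of -0.16, with an interval from -0.77 to 0.45 (adjusted p = 0.733), and so the probe sets of this gene did not share a sign.

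Slc30a1, or ZnT1, exports zinc across the plasma membrane and is a known target of MTF-1. Its brighter probe set measured 1521, 1230, 1298 and 1416 in Pemt-/- and 1676, 1849, 2288 and 2387 in Pemt+/+ at weeks 1, 2, 3 and 4. All Pemt-/- values lay below all Pemt+/+ values, by a narrow margin at week 1. The mean was 1366 ± 129 in Pemt-/- and 2050.0 ± 342 in Pemt+/+ (SD, n = 4 each), and Slc30a1 was lower by 1.48-fold, at a log2 difference of -0.57 ± 0.13 SE (adjusted p = 0.0190). When week 3 or week 4 was left out, Slc30a1 no longer passed (adjusted p = 0.107 and 0.0916), nor did it for the mean of its probe sets (log2 difference -0.37, adjusted p = 0.0609). The other probe set measured 320, 291, 302 and 321 in Pemt-/- and 338, 294, 367 and 409 in Pemt+/+. It was the lower in Pemt-/- in 4 of 4 weeks but did not pass, with a log2 difference of -0.17 and an interval from -0.48 to 0.13 (adjusted p = 0.427).

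Slc30a10, or ZnT10, belongs to the zinc exporter family by sequence and is best known for carrying manganese out of hepatocytes. Its brighter probe set measured 1005, 1287, 895 and 807 in Pemt-/- and 1746, 1721, 1990 and 1623 in Pemt+/+ at weeks 1, 2, 3 and 4. No Pemt-/- value reached the lowest Pemt+/+ value. The mean was 998 ± 209 in Pemt-/- and 1770 ± 156 in Pemt+/+ (SD, n = 4 each), and the probe set was lower by 1.78-fold, at a log2 difference of -0.83 ± 0.13 SE (adjusted p = 0.00484). The second probe set measured 1259, 1351, 708 and 732 in Pemt-/- and 1755, 1623, 1650 and 1575 in Pemt+/+. It too showed no overlap and was lower by 1.69-fold, at a log2 difference of -0.76 ± 0.17 SE (adjusted p = 0.0170). The call of the brighter Slc30a10 probe set held whichever week was left out, while the second no longer passed when week 3 or week 4 was left out (adjusted p = 0.0856 and 0.0761). Both probe sets of Slc30a10 were thus lower, and the values at weeks 3 and 4 were below those at weeks 1 and 2 in Pemt-/- in both.

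**Figure D2:**
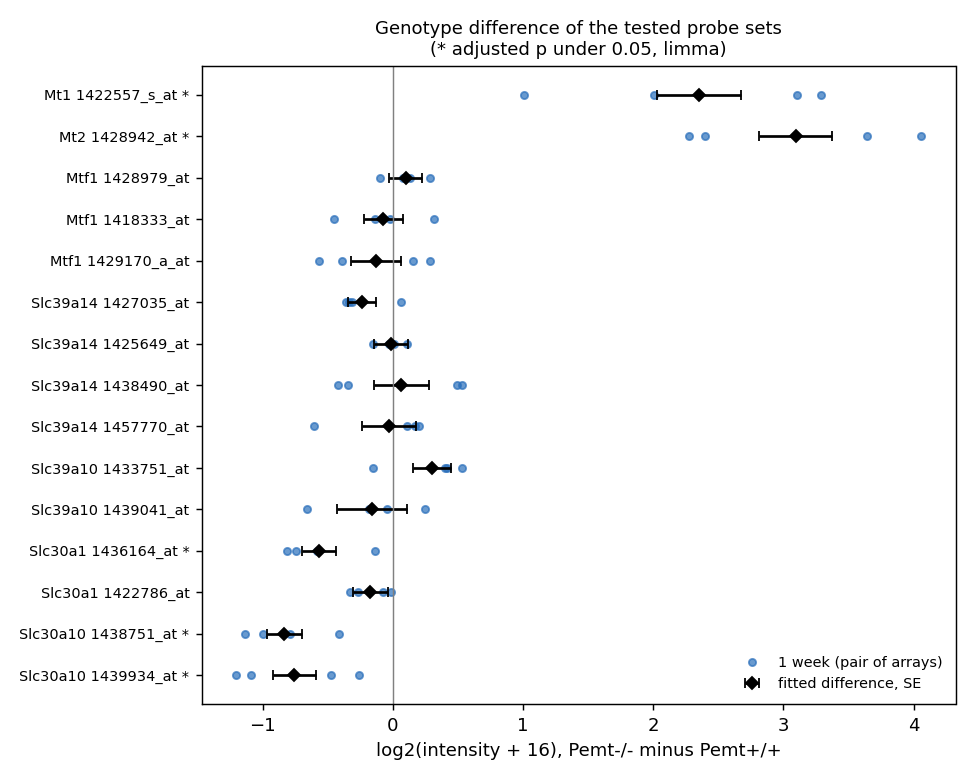
Difference of log2(intensity + 16), Pemt-/- minus Pemt+/+, for the 15 tested probe sets, with each week as a blue point and the fitted difference and its SE as a black diamond with bars. Mt1 and Mt2 lie to the right at 2.35 and 3.09, the Slc30a10 probe sets lie to the left at -0.83 and -0.76, and the probe sets of Mtf1, Slc39a14 and Slc39a10 lie around 0.

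**Figure D3:**
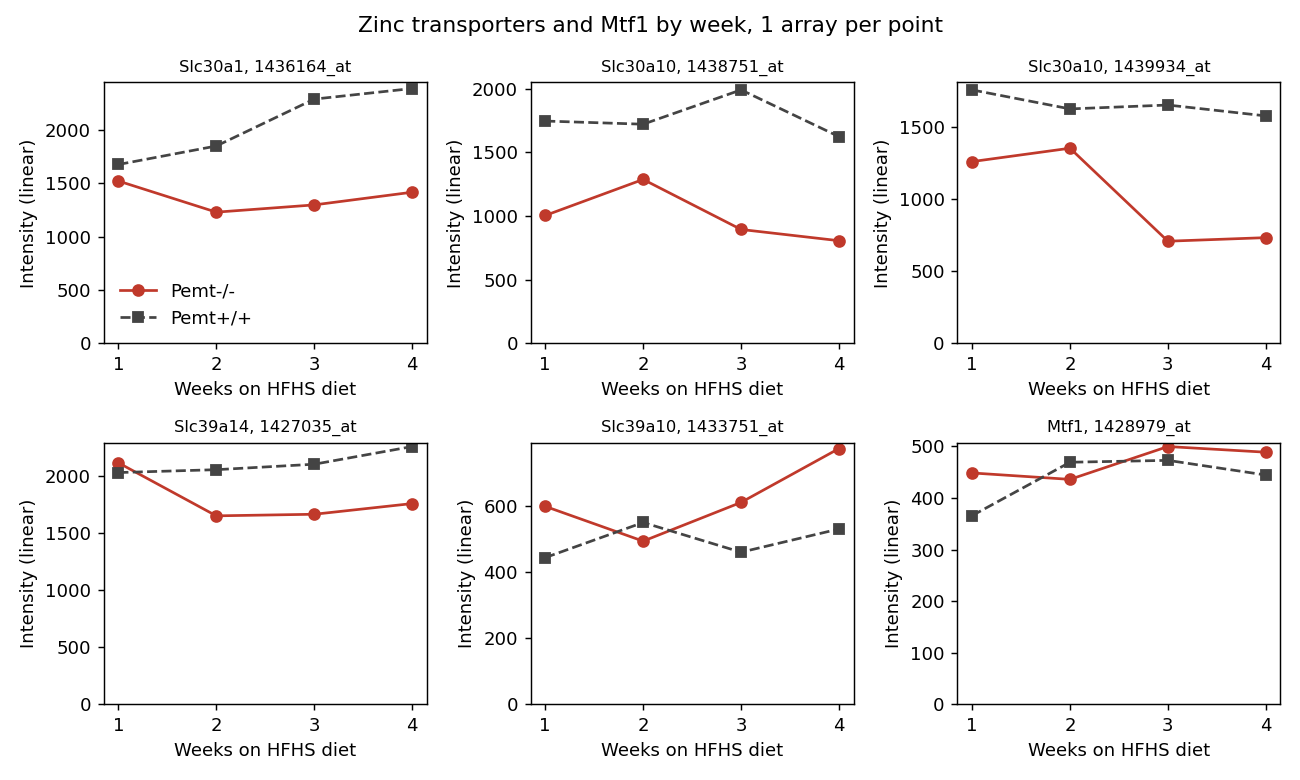
Intensity (y axis, linear, from 0) by week of HFHS chow (x axis) for 6 probe sets of Slc30a1, Slc30a10, Slc39a14, Slc39a10 and Mtf1, with red circles for Pemt-/-, grey squares for Pemt+/+ and 1 array per point. The curves of Slc30a1 and Slc30a10 do not cross, with Slc30a1 at 1416 in Pemt-/- and 2387 in Pemt+/+ at week 4, while those of the other genes cross.

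The course over the weeks was examined next, with the change per week fitted within each genotype. Mt1 rose along the weeks in Pemt-/- liver, and it was the only probe set of the 15 whose change per week passed in that genotype, against 0.104% of all probe sets tested. The slope of Mt1 was 0.89 ± 0.10 log2 units per week in Pemt-/- (SE, adjusted p = 0.0331) and 0.13 in Pemt+/+ (adjusted p = 0.999). The Mt1 intensity at week 4 was 5.76 times that at week 1 in Pemt-/- and 1.34 times in Pemt+/+. This slope call was lost without week 1, 3 or 4 (adjusted p = 0.0953, 0.0791 and 0.197). Mt2 had a slope of 0.71 ± 0.13 in Pemt-/- (SE, adjusted p = 0.0920) and 0.16 in Pemt+/+ (adjusted p = 0.999), with intensities at week 4 that were 3.45 and 1.48 times those at week 1. The Mt2 slope did not pass. Most of the distance between the Pemt-/- arrays of Mt2 lay between week 2, at 1082, and week 3, at 3761.

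In Pemt+/+, 0 of the 15 probe sets and 0 of all 27022, or 0%, had a change per week that passed (limma), and 1 of the 15 and 1472 of all had an unadjusted p under 0.05. That 1 was the brighter Slc30a1 probe set, with a slope of 0.18 ± 0.06 in Pemt+/+ (SE, unadjusted p = 0.0174, adjusted p = 0.840). The difference in slope between the genotypes likewise passed for 0 of the 15 and for 0 of all, or 0%, while 4 of the 15 and 1818 of all had an unadjusted p under 0.05. These 4 were Mt1, Mt2, the brighter Slc30a1 probe set and the second Slc30a10 probe set. The slope difference of Mt1 was 0.76 ± 0.14 per week, with a 95% interval from 0.45 to 1.06 (unadjusted p = 0.000249, adjusted p = 0.498), and that of Mt2 was 0.55 ± 0.19, with an interval from 0.13 to 0.97 (adjusted p = 0.682). Those of Slc30a1 and Slc30a10 were -0.21 (adjusted p = 0.737) and -0.28 (adjusted p = 0.726). A wider distance between the genotypes at later weeks was therefore seen in the values of these genes but did not pass across the array.

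**Figure D4:**
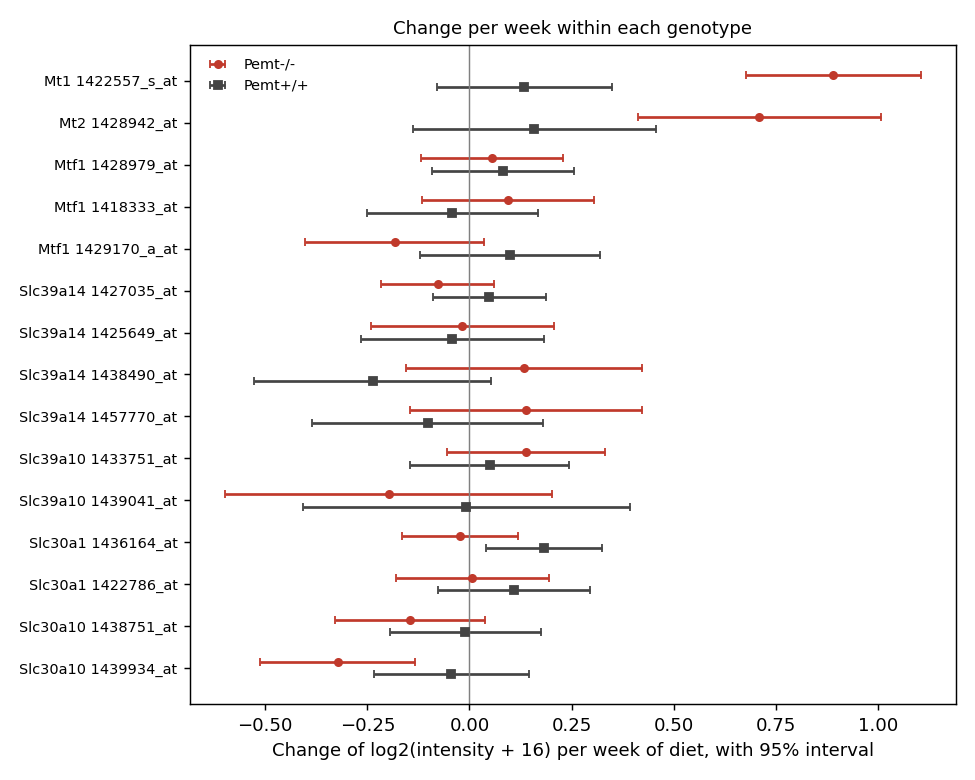
Change of log2(intensity + 16) per week of diet with its 95% interval for the 15 tested probe sets, with red circles for Pemt-/- and grey squares for Pemt+/+. The Mt1 slope is 0.89 in Pemt-/- and 0.13 in Pemt+/+, and apart from Mt1 the intervals leave out 0 only for Mt2 and the second Slc30a10 probe set in Pemt-/- and for the brighter Slc30a1 probe set in Pemt+/+.

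The rest of the zinc transporter families was listed as well. Of 20 other genes of the Slc30 and Slc39 families, 18 were tested, 2 were higher, 0 were lower and 16 did not pass, and the median log2 difference was 0.10, against 0.02 for all tested probe sets. This share of higher genes was near that of the whole array. Slc39a4, or ZIP4, which takes up zinc in the gut, measured 2817, 2700, 3465 and 3879 in Pemt-/- and 3021, 1445, 1019 and 1602 in Pemt+/+ at weeks 1, 2, 3 and 4. At week 1 Slc39a4 was the lower in Pemt-/-, against the sign of its fitted log2 difference of 0.95 (limma, adjusted p = 0.0323). Slc30a3, or ZnT3, which loads zinc into synaptic vesicles of neurons, measured 164, 113, 228 and 243 in Pemt-/- and 38.3, 44.8, 231 and 38.5 in Pemt+/+, with a log2 difference of 1.26 (adjusted p = 0.0374). The Pemt+/+ array of week 3 stood within the Pemt-/- range. Both calls depended on single weeks, since that of Slc39a4 was lost without week 2, 3 or 4 (adjusted p = 0.0618, 0.129 and 0.115) and that of Slc30a3 without week 1, 2 or 4 (adjusted p = 0.141, 0.0602 and 0.139). Slc39a6 and Slc39a11 came next by p, with log2 differences of 0.56 and 0.31 (adjusted p = 0.0613 and 0.0763).

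The arrays measured whole liver, so that fewer cells of a type and less RNA per cell cannot be told apart, and cell type markers moved with the genotype as well. Of 8 tested hepatocyte markers, 7 were lower and 0 higher in Pemt-/- (median log2 difference -0.42), and their summed intensity was 243471 to 323240 in Pemt-/- and 337492 to 366826 in Pemt+/+. Fewer hepatocyte markers passed when week 1, 3 or 4 was left out, with 2 lower without week 1, 1 without week 3 and 1 without week 4. Without week 2, 7 were lower, and 8 were lower after centring on the tested probe sets. Of 9 tested macrophage markers, 8 were higher and 0 lower (median 1.40). The summed intensity of the macrophage markers was 32298, 27574, 41765 and 43997 at weeks 1, 2, 3 and 4 in Pemt-/- and 17777, 17925, 12180 and 13342 in Pemt+/+. The markers of this list did not share 1 course in Pemt-/-. Ctss, a bright member, measured 6328, 5794, 12613 and 13948 at weeks 1, 2, 3 and 4 in Pemt-/-. In the same genotype, Marco measured 2508, 1322, 464 and 298 and fell along the weeks (slope -1.05, adjusted p = 0.0243). Clec4f measured 2486, 2780, 1262 and 1176 in Pemt-/-. In Pemt+/+, Marco measured 452, 314, 203 and 212 and Clec4f 2363, 2267, 1332 and 1505, so both were lower at the later weeks there too. The slope differences of Marco and Clec4f between the genotypes did not pass (limma, adjusted p = 0.498 and 0.910). All 10 hepatic stellate cell markers were higher (median 1.58), with sums of 42250 to 60084 in Pemt-/- and 14141 to 20082 in Pemt+/+. Of 9 sinusoidal endothelial markers 4 were lower and 0 higher, with sums of 4900 to 10845 in Pemt-/- and 8255 to 12018 in Pemt+/+ (1 lower when week 1 was left out and 0 when week 3 or week 4 was), and none of the 5 cholangiocyte and 3 lymphocyte markers tested passed (limma). No hepatocyte marker was near 0, the lowest mean being that of Hnf4a at 8256 in Pemt-/-, while the macrophage marker Trem2 had a mean of 15.4 in Pemt+/+. The part of these cell types in the differences of the metallothionein and transporter genes was not tested.

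Finally, the genes whose log2 values most resembled those of Mt1, Mt2 and Slc39a14 over the 8 arrays were listed among 12948 genes. The arrays hold both genotypes, so for Mt1 and Mt2 the likeness includes the genotype difference, and Pearson's r is given as a description. For Mt1 these were Tnxb, a tenascin of the extracellular matrix (r = 0.991), Capns1, the calpain small subunit (r = 0.990), Anapc4, a subunit of the anaphase-promoting complex (r = 0.990), Fcgr4, an Fc receptor of myeloid cells (r = 0.989), and Mafk, a small Maf transcription factor (r = 0.988). For Mt2 they were Spats2l (r = 0.998), the epithelial membrane protein gene Emp2 (r = 0.997), the galectin gene Lgals3 (r = 0.996), the MHC class II gene H2-Aa (r = 0.995) and the Rag GTPase gene Rragd (r = 0.995). Lgals3 averaged 5436 in Pemt-/- and 327 in Pemt+/+ (log2 difference 3.70, adjusted p = 0.000556). Mt1 and Mt2 correlated with each other at r = 0.98 over the 8 arrays, at 0.957 within Pemt-/- and at 0.727 within Pemt+/+. The lists of Mt1 and Mt2 shared no gene, but lists of 5 genes cannot show whether the courses of Mt1 and Mt2 differed. For Slc39a14 they were Fastkd5 (r = 0.974), Rufy2 (r = 0.972), Zfp281 (r = 0.970), the angiogenic factor gene Vegfa (r = 0.965) and the nucleoporin gene Nup155 (r = 0.964). None of these 5 passed the genotype test (adjusted p from 0.0518 to 0.284).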

How the data were processed

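Liver RNA of 4 Pemt-/- and 4 Pemt+/+ samples was measured on Affymetrix arrays. The authors deposited a linear intensity for each probe set, made per the submitters' processing notes with Affymetrix Expression Console. Its version and the summarisation of probes were not given in the sources used here. Every array had a trimmed mean of 500.0, without the outer 2% of probe sets at either end. The median intensity was 73.8 to 81.3 in Pemt-/- and 78.2 to 81.3 in Pemt+/+, and the upper quartile was 384 to 425 in Pemt-/- and 363 to 370 in Pemt+/+. No detection calls were used.

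The 64 control probe sets were left out. Of the other 45037, the annotation table paired 34945 with 1 gene, 932 with several and left 9160 unnamed here, and 34741 matched mouse RefSeq by Entrez identifier. Intensities were analysed as log2(intensity + 16), so fold changes of dim probe sets are understated. Probe sets with a mean above the 40th percentile were tested (27022, of 12949 genes). Genotypes were compared in limma 3.58.1 under R 4.3.3 (eBayes with trend, two-sided) with the week as a block, following the study's comparison week by week. The change per week came from a line fitted to the weeks of each genotype. P-values were adjusted over all tested probe sets by Benjamini-Hochberg with a threshold of 0.05, intervals are 95% intervals of the fit, and single weeks have no test. Ratios by week are of deposited intensities. The fits were also run on simulated data with noise drawn independently for each array, as a check of the code only.

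Named were all probe sets of the 7 genes, up to 4 genes of each other list with the smallest p by the probe set of the highest mean, Pemt, and the 5 genes most correlated with Mt1, Mt2 and Slc39a14. Lcn2, Saa3 and the macrophage markers Ctss, Marco and Clec4f fall outside this rule and were named after their values were seen. The genes, lists and tests were chosen with earlier results of these data known. Promoter windows were searched with Python 3.11.15. Alternatives were no filter or a filter at the 60th percentile, pseudocounts of 1 and 64, median centring, quantile normalization, eBayes without trend, the mean of the probe sets of a gene, each week left out and no week block. Centring on the tested probe sets was added after seeing the data.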

Additional observations from a re-analysis of the deposited data

How the results depend on the processing

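The calls of Mt1 and Mt2 were kept under all alternatives run, with log2 differences of 1.28 to 2.80 for Mt1 (adjusted p from 0.00185 to 0.0451) and 2.77 to 3.37 for Mt2 (adjusted p from 0.000394 to 0.0146). That of the brighter Slc30a10 probe set was kept as well (-0.99 to -0.73, adjusted p from 0.00198 to 0.0347). The number of probe sets of the 7 genes that were lower, 3, was 1 with eBayes without trend, and the number of genes that were lower, 2 by the brightest probe set, was 1 with eBayes without trend and 1 with the mean of the probe sets of a gene. Leaving out 1 week gave 1 to 3 lower probe sets and 1 to 2 lower genes, with 1 without week 3 and 1 without week 4. With eBayes without trend, the brighter Slc30a1 probe set had adjusted p = 0.0748, the second Slc30a10 probe set adjusted p = 0.0694 and the Mt1 slope in Pemt-/- adjusted p = 0.309, and with no filter the Mt1 slope had adjusted p = 0.0663. The causes were not tested.

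Over the array, 2788 probe sets were higher and 1584 lower, 1715 and 633 with eBayes without trend, 1334 and 484 without week 3 and 1463 and 577 without week 4, and 921 were lower without week 1. With each array centred on the median of the tested probe sets, an alternative chosen after seeing the data, 37.6% of calls were higher in place of 63.8%, and among the probe sets of the 7 genes 2 were higher and 4 lower, the fourth being the brightest of Slc39a14. Of 424 comparisons of a result of the 7 genes with an alternative, 12 lost their call, 1 gained one and 0 changed sign with a call. Most of these results had no call to lose. The losses fell on the brighter Slc30a1 probe set (4 of 14 alternatives), the second Slc30a10 probe set (3 of 13) and the Mt1 slope in Pemt-/- (5 of 12).

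Without the replicate block, that is without the week in the model, 2 probe sets of the 7 genes were higher and 3 lower, as with it, and Mt2 had the same log2 difference of 3.09 (adjusted p = 0.000625). Deviations of the arrays of the same week correlated across probe sets at 0.10, -0.02, -0.03 and 0.11 for weeks 1, 2, 3 and 4, and the block rests on the shared week of diet. With 4 arrays per genotype, differences of the size of the intervals given for Mtf1 and Slc39a10 could not be told from 0.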

Other observations

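Other gene lists whose known inducers also act on metallothionein genes, and copper handling genes, were counted in the same arrays, with no link to Mt1 or Mt2 tested. Of 7 tested NRF2 target genes, which respond to oxidative stress, 4 were higher and 0 lower in Pemt-/- (median log2 difference 0.60). Srxn1, which encodes sulfiredoxin, averaged 2267 in Pemt-/- and 711 in Pemt+/+ (log2 difference 1.52, adjusted p = 0.00184). Hmox1, the heme oxygenase gene, averaged 890 in Pemt-/- and 341 in Pemt+/+ (1.33, adjusted p = 0.00864), and the glutathione transferase gene Gstm1 averaged 20470 in Pemt-/- and 11591 in Pemt+/+ (0.83, adjusted p = 0.00225). The call of the fourth, Txnrd1 (0.44, adjusted p = 0.0286), was lost without week 1, 3 or 4 and after centring on the tested probe sets (adjusted p from 0.0884 to 0.153).

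Of 16 IL-6 and STAT3 acute phase genes, 2 were higher and 7 lower (median -0.42), with 4 lower without week 3 and 3 without week 4. The fibrinogen genes Fgb, Fga and Fgg and the orosomucoid gene Orm1 were lower, at log2 differences of -0.64, -0.56, -0.48 and -0.53, and Fgg no longer passed when week 3 or week 4 was left out (adjusted p = 0.0772 and 0.0509). The 2 that were higher, named after their values were seen, were Lcn2 (3.03, adjusted p = 0.0125) and Saa3 (1.12, adjusted p = 0.0244). Lcn2 measured 4736, 2658, 15593 and 15705 at weeks 1, 2, 3 and 4 in Pemt-/- and 421, 2644, 646 and 899 in Pemt+/+. Its values thus hardly differed at week 2. The Pemt+/+ array of week 2 was also the highest of its genotype for Saa1, Saa2 and Orm2, at 49407, 32453 and 2945. The other Pemt+/+ arrays reached at most 33269, 9072 and 1205. This did not hold for all genes of the list, such as Saa3 and Fga. Lcn2 did not pass when week 1 or week 3 was left out (adjusted p = 0.0685 and 0.0542), nor Saa3 when week 4 was (adjusted p = 0.0730), so that 1 gene was higher when week 1, 3 or 4 was left out, and 4 were higher without week 2. Of 9 glucocorticoid response genes, 5 were lower and 0 higher (median -0.45), with Tsc22d3, known as GILZ, at 4598 in Pemt-/- and 8164 in Pemt+/+ (adjusted p = 0.00494). Of these 9 genes, 1 was lower without week 3 and 3 without week 4. Of 10 copper handling genes, 2 were higher and 2 lower (median 0.09), with the copper exporter gene Atp7a at a log2 difference of 0.60 and Commd1 at 0.42, the superoxide dismutase copper chaperone gene Ccs at -0.54 and the copper importer gene Slc31a1 at -0.60. No copper call was kept without week 3 or without week 4 (limma, adjusted p from 0.0886 to 0.138). The hepatocyte markers in these arrays had a median of -0.42.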
